A study of Mus musculus with 6 samples.

Results

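Proliferating cell nuclear antigen (Pcna), the ring-shaped clamp of DNA replication, was examined together with the genes of the complexes that put it on DNA and take it off again. The set held Pcna, the 5 subunits of replication factor C (Rfc1, Rfc2, Rfc3, Rfc4 and Rfc5) and the loader subunits Chtf18, Dscc1 and Atad5. Its members were all probe sets whose only annotated gene symbol was 1 of these 9 names, which gave 17 of 45037 non-control probe sets and 9 of 18193 genes. The cells were of V720, a cell line from mouse breast cancer with mammary epithelium as its labelled tissue, grown in DMEM with fetal calf serum. The first group of 3 samples received the CDK4/6 inhibitor PD0332991 at 1 µM for 24 h. The other group of 3 samples received vehicle for the same 24 h, and the vehicle is not named in the labels. Starting from total RNA, each sample was measured on its own Affymetrix array. The series' design text calls the 3 samples of a group biological replicates of this single cell line.

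PCNA encircles DNA as a closed ring and holds polymerases and many other replication and repair proteins at the site of synthesis. A clamp loader opens the ring with ATP and closes it around a primed template. In the main loader the large subunit RFC1 sits with the small subunits RFC2 to RFC5, and in alternative loaders CHTF18 or ATAD5 takes the place of RFC1 while the small subunits stay. PD0332991 (palbociclib) inhibits CDK4 and CDK6, kinases that inactivate the retinoblastoma protein before S phase, and many replication genes are known targets of the E2F factors which that protein restrains. The comparison asks which of the clamp and loader transcripts differ after a day of inhibition.

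All 9 genes fell with PD0332991. By the brightest probe set and with 16 added to the intensity, the fall was largest for Dscc1 and Chtf18, which were at 34.3% and 31.8% of the vehicle mean intensity, and smallest for Rfc1 and Pcna, at 72.4% and 67.0%. Every one of the 17 probe sets was called lower at an adjusted p below 0.05 in limma, where 8.19% of all probe sets were called lower. By its brightest probe set each of the 9 genes was called lower, against 9.05% of all genes. In all 17 probe sets every PD0332991 array lay below every vehicle array, as it did in 18.5% of all probe sets. The median log2 fold change (on intensity + 16) of the 9 genes was -0.89, beside 0.00 for all genes. Of the 9, 4 were called and at least 2-fold lower, as were 209 of the 18193 genes. With 64 added in place of 16, 3 of the 9 were, Chtf18 being at -0.93. The matching count over all genes with 64 added is not given here. In RNA from a whole culture, fewer cells that express a gene and less RNA per cell cannot be told apart.

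**Figure D1:**
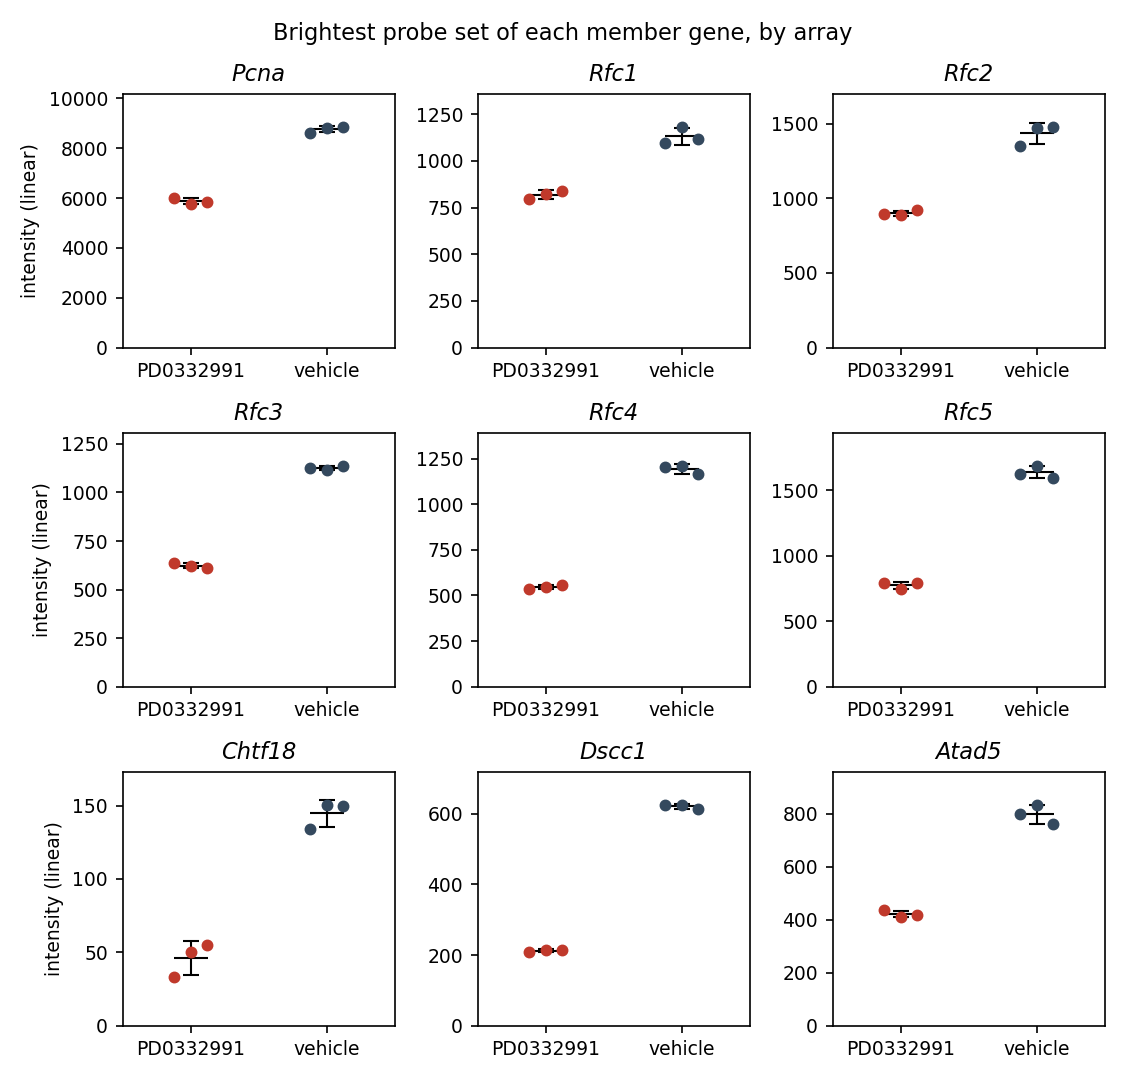
Linear intensity of the brightest probe set of each of the 9 genes on the 3 PD0332991 arrays (red, left) and the 3 vehicle arrays (dark, right), with the mean and SD as a black bar and every axis starting at 0. In all 9 panels the PD0332991 points lie below the vehicle points, with the widest relative spread in Chtf18.

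The promoters of these genes are shown because replication genes are often described by the E2F-type sites near their starts. The RefSeq promoter table (GRCm38.p6, 250 bases before to 50 after the transcript start) held windows for 7 of the 9 genes, Dscc1 and Rfc2 being those not used here. The letters TTTCCCGC, TTTCGCGC, TTTGCCGC and TTTGGCGC, strict forms of E2F-type sites, were searched on both strands. Of the 7 windows, 2 held a match, beside 2.26% of the 32851 windows in the table. They belong to Rfc3, with 2 matches, and Atad5, with 1. Looser forms were not searched, so a window without a match may still hold such a site. Windows of 4 genes are shown, the pair with a match and, for contrast, those of Pcna and Rfc4, which have none, with E2F-type matches in capitals and all read 5′ to 3′ in the direction of the gene. Rfc3 lies at chr5:151651159-151651458 on the minus strand, Atad5 at chr11:80089150-80089449 on the plus strand, Pcna at chr2:132253131-132253430 on the minus strand and Rfc4 at chr16:23127681-23127980 on the minus strand.
Rfc3: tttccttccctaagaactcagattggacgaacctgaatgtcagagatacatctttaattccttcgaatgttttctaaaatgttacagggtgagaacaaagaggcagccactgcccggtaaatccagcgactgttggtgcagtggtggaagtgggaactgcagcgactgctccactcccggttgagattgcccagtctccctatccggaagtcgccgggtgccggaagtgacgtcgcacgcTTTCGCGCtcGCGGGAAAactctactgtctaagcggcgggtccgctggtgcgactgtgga
Atad5: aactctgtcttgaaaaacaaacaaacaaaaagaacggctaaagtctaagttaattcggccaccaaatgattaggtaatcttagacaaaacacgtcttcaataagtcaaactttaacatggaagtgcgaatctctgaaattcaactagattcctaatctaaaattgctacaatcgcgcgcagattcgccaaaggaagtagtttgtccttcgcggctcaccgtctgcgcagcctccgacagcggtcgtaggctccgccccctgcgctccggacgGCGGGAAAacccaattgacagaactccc
Pcna: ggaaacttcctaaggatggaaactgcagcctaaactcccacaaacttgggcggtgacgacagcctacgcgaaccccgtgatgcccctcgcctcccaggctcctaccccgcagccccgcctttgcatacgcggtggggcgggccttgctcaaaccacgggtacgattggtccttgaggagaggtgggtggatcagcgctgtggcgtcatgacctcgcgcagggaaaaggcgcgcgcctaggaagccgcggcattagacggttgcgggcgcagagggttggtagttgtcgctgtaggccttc
Rfc4: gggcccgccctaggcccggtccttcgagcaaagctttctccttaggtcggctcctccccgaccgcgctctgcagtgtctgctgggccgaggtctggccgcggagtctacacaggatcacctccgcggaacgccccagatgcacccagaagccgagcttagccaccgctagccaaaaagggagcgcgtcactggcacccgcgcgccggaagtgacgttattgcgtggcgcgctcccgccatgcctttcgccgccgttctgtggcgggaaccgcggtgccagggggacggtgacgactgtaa

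Counted from 0 at the first transcribed base, the Rfc3 matches span bases -10 to -3 and 0 to 7, and the Atad5 match spans bases 22 to 29. A CCAAT box (CCAAT, both strands) stood in 5 of the 7 windows, beside 37.4% of all windows, and Chtf18 had 4 of them. The CHR letters TTTGAA or TTCGAA, on both strands, were found in 1 of the 7, that of Rfc3, beside 19.2% of all windows. No matches of different motifs shared bases in these windows, and a match is a description of the sequence only. Rfc4 and Rfc5 had no match to any of the 3 motifs.

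**Figure D2:**
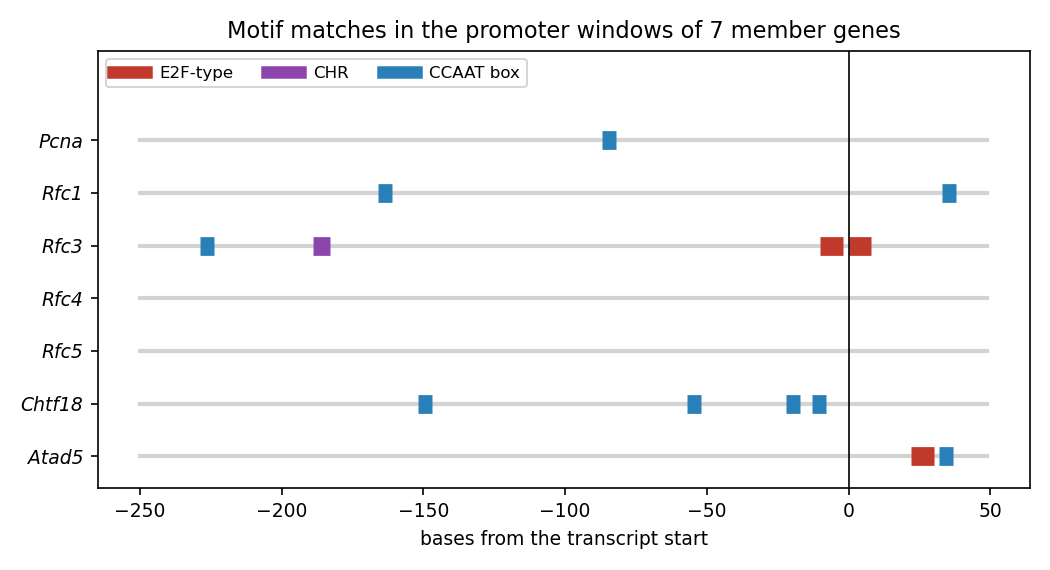
Motif matches in the promoter windows of 7 member genes, drawn by distance in bases from the transcript start (vertical line) with E2F-type matches in red, CHR in purple and CCAAT boxes in blue. The E2F-type matches of Rfc3 and Atad5 lie within 30 bases of the start, and the windows of Rfc4 and Rfc5 hold no match.

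The clamp itself was measured by 1 probe set, among the brightest on the array, with 99.0% of probe sets dimmer. Pcna had intensities of 5993, 5760 and 5861 on the PD0332991 arrays, against 8622, 8813 and 8867 on the vehicle arrays. The vehicle arrays were all above the PD0332991 arrays, the lowest of them 1.44 times the highest PD0332991 array. The log2 fold change was -0.58 (SE 0.04, adjusted p = 0.000762), a 1.49-fold lower level, and 436 of the 18193 genes had a larger fall. RefSeq lists the pseudogenes Pcna-ps1 and Pcna-ps2, and signal from such copies in this probe set was not tested.

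Rfc1, the large subunit found only in the main loader, changed least of the members. Its brightest probe set had intensities of 794.5, 823.4 and 841.4 with PD0332991, against 1097, 1184 and 1115 with vehicle. The groups did not overlap, and the log2 fold change was -0.46 (SE 0.05, adjusted p = 0.00376). The other 2 probe sets of Rfc1 gave log2 fold changes of -0.40 and -0.33, both with adjusted p = 0.0177 in limma. Each of these dimmer probe sets lost its call when PD0332991 replicate 1 or 2, or vehicle replicate 2 or 3, was left out, whereas the brightest kept its call in every such fit.

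The small subunits, ATPases of the ring-shaped core that all these loaders share, fell by unequal amounts. Rfc2 had intensities of 893.3, 884.6 and 918.9 with PD0332991, against 1348, 1472 and 1479 with vehicle, a log2 fold change of -0.66 (adjusted p = 0.00126, with an SE of 0.05). Its other 2 probe sets, of a type whose probes can match other transcripts, gave -0.73 and -0.69. Rfc3 had 635.1, 622.5 and 612.5 with PD0332991, against 1124, 1116 and 1138 with vehicle, and its 2 probe sets had log2 fold changes of -0.84 and -0.87 (SE 0.04 each, adjusted p = 0.000164 and 0.000198). The spread was small on the brighter Rfc3 probe set, at 623.3 ± 11.3 with PD0332991 and 1126 ± 11.1 with vehicle (SD, n = 3 each).

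Rfc4 and Rfc5 fell further, to less than 50% of the vehicle mean. Rfc4 had intensities of 533.7, 546.6 and 559.0 with PD0332991, against 1205, 1212 and 1164 with vehicle. That is a 2.15-fold lower level (log2 fold change -1.10 with SE 0.04 and adjusted p = 9.52e-05), and a further Rfc4 probe set gave -1.21 (SE 0.05). Rfc5, with 1 probe set, had 788.4, 744.2 and 788.1 with PD0332991, against 1626, 1688 and 1597 with vehicle (log2 fold change -1.07, SE 0.05, adjusted p = 0.00014). Larger falls than those of Rfc4 and Rfc5 were seen in 174 and 186 of the 18193 genes.

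Chtf18 and Dscc1, subunits of the loader that is known for work at the leading strand and in sister chromatid cohesion, fell the furthest on this scale, though not under every setting. Dscc1 had intensities of 209.1, 214.1 and 215.2 with PD0332991, against 625.8, 624.4 and 613.5 with vehicle. The arrays of each group were close together, and the log2 fold change was -1.48 (SE 0.04, adjusted p = 8.97e-05), a 2.79-fold lower level. A dim second Dscc1 probe set had 26.2, 15.7 and 26.9 with PD0332991, against 57.2, 57.3 and 42.3 with vehicle, a log2 fold change of -0.82 (adjusted p = 0.0219, with an SE of 0.15). The added 16 weighs most at such low values, where the ratio of mean intensities was 43.9%. This dim probe set lost its call without PD0332991 replicate 1, vehicle replicate 1 or vehicle replicate 2.

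Chtf18, the large subunit of that loader, was also dim, with 52.7% of probe sets dimmer. It had intensities of 33.0, 50.2 and 55.1 with PD0332991, against 134.3, 150.6 and 149.6 with vehicle. The PD0332991 arrays varied widely relative to their level, but none came near a vehicle array. The log2 fold change was -1.39 (SE 0.15, adjusted p = 0.00327), and it was -1.66 with 1 and -0.93 with 64 added to the intensity in place of 16.

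Atad5, the large subunit of the complex that removes PCNA from DNA after synthesis, had intensities of 435.9, 410.7 and 418.9 with PD0332991, against 798.6, 835.1 and 760.8 with vehicle (log2 fold change -0.89, SE 0.05, adjusted p = 0.000364). Its second probe set was far dimmer, at 21.6 ± 3.56 with PD0332991 and 40.9 ± 4.79 with vehicle (SD, n = 3 each), with a log2 fold change of -0.60 (adjusted p = 0.0129, with an SE of 0.09). On the linear scale both probe sets were at 52.9% of the vehicle mean. The dimmer one lost its call without PD0332991 replicate 1, vehicle replicate 2 or vehicle replicate 3.

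**Figure D3:**
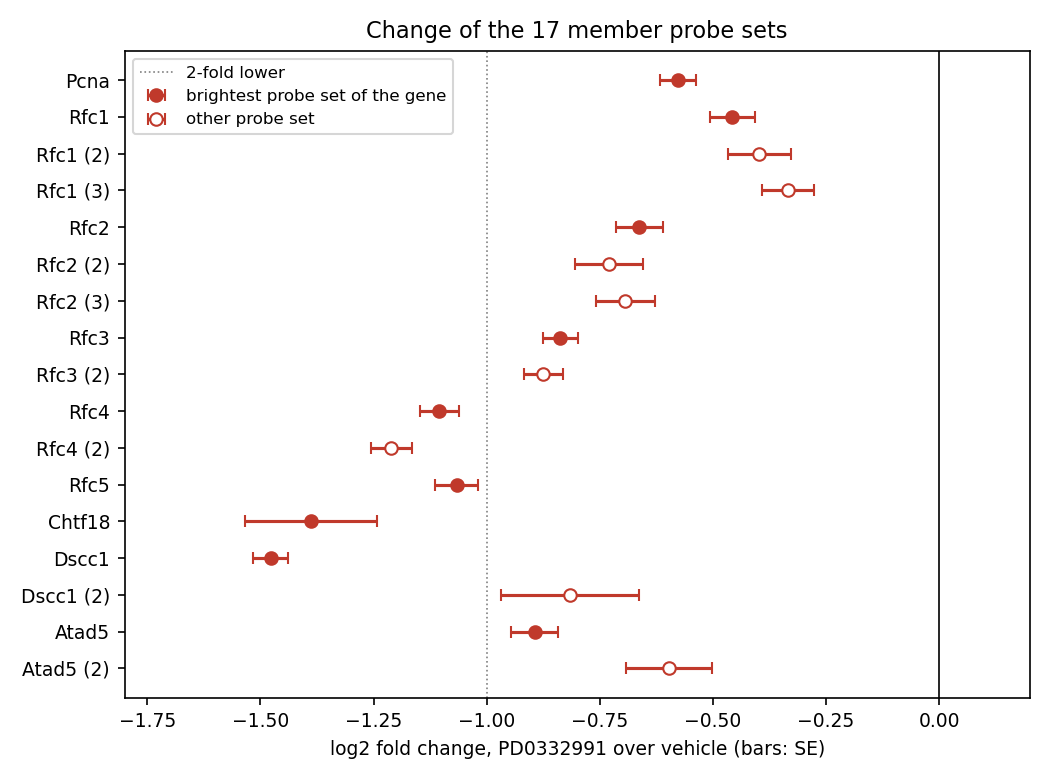
Log2 fold change of the 17 member probe sets, PD0332991 over vehicle, with the SE as a bar, filled circles for the brightest probe set of a gene and open circles for its others. All points lie left of 0, from -1.48 for Dscc1 to -0.33 for the dimmest Rfc1 probe set, and the largest gap between probe sets of 1 gene, 0.66, is that of Dscc1.

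Whether the loaders changed by the same amount as their clamp was examined on the per-array difference in log2 intensity between each loader gene and Pcna, in 8 comparisons. For Rfc1 and Rfc2 this difference overlapped between the groups. Relative to Pcna, Rfc1 differed by 0.12 between PD0332991 and vehicle (95% interval -0.01 to 0.25 from the pooled spread, exact permutation p = 0.2, adjusted 0.2) and Rfc2 by -0.09 (95% interval -0.19 to 0.02, exact permutation p = 0.2, adjusted 0.2). The overlap depended on the setting. Rfc1 did not overlap with a pseudocount of 64 (0.14), with quantile normalization (0.16) or with the probe sets of a gene averaged (0.18), and Rfc2 did not overlap with its probe sets averaged (-0.12).

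The other 6 differences were all negative and did not overlap, and their 95% intervals, not adjusted for the 8 comparisons, lay below 0. The share of all genes whose difference from Pcna would separate the groups in this way was not computed. Rfc3 differed from Pcna by -0.26 (-0.31 to -0.21), Atad5 by -0.32 (-0.44 to -0.20), Rfc5 by -0.49 (-0.58 to -0.40), Rfc4 by -0.53 (-0.64 to -0.41), Chtf18 by -0.81 (-1.32 to -0.31) and Dscc1 by -0.90 (-0.99 to -0.81). Each had an exact two-sided permutation p of 0.1 (0.133 adjusted over the 8), the smallest that this test can give with 3 arrays against 3. The sizes for the dimmer genes moved with the setting, to -0.35 for Chtf18 with a pseudocount of 64, and to -0.57 for Dscc1 and -0.17 for Atad5 with their probe sets averaged. Pcna was also far brighter than the loader genes, with 99.0% of probe sets dimmer, against 52.7% for Chtf18 to 87.2% for Rfc2. Whether log2 fold changes can be compared across that range of intensity was not tested.

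By the brightest probe set and a pseudocount of 16, the genes ran in order of fall Dscc1, Chtf18, Rfc4, Rfc5, Atad5, Rfc3, Rfc2, Pcna and Rfc1. With a pseudocount of 1, Chtf18 (-1.66) came before Dscc1 (-1.54), as it did without PD0332991 replicate 3 (-1.50 and -1.49). With a pseudocount of 64, Chtf18 (-0.93) came after Rfc4 (-1.04) and Rfc5 (-1.02). With probe sets averaged, Dscc1 (-1.15) came after Chtf18 (-1.39) and Rfc4 (-1.16), and Atad5 (-0.75) came after Rfc3 (-0.86). Of the neighbours in the first order, only Rfc5 with Atad5 (0.17 apart on the log2 scale) and Rfc3 with Rfc2 (0.17 apart) differed by more than the spread between arrays in the sense that their per-array differences did not overlap between the groups. Within the main loader, Rfc1 lay above Rfc2 by 0.21, above Rfc3 by 0.38, above Rfc5 by 0.61 and above Rfc4 by 0.65 in log2 fold change. Among the large subunits in this set, Rfc1 lay above Atad5 by 0.44 and above Chtf18 by 0.93. Rad17, the loader subunit of the checkpoint clamp and not in the set, had a log2 fold change of -0.03. These differences between loader genes were added after the values were seen, as descriptions, and were not tested.

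The genes whose 6-array pattern lay closest to that of Pcna were found among 10767 other genes above the median intensity, by the root mean square distance between log2 values centred on each gene's mean. The 5 nearest were Trim37, a ubiquitin ligase, at a distance of 0.01, Nup205, a nuclear pore protein, at 0.02, and, each at 0.03, Nbn, of the complex that senses DNA breaks, Ints7, of the Integrator complex, and Rpa1, which coats single-stranded DNA. Their log2 fold changes were -0.59, -0.59, -0.55, -0.52 and -0.61, close to that of Pcna because the genes were chosen by this distance. The nearest loader gene was Rfc2 at 0.06, and 81 of those other genes lay nearer to Pcna than it did.

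In a list of other sliding clamps and loaders, 3 of 7 measured genes fell and none rose, beside 9.05% of all genes lower and 7.8% higher. The median of their log2 fold changes was -0.23. This list holds Chtf8, the remaining partner of CHTF18 and DSCC1, and the checkpoint clamp that resembles PCNA with its loader subunit Rad17. Rhno1, which binds the checkpoint clamp, had intensities of 1138, 1168 and 1183 with PD0332991, against 1453, 1471 and 1421 with vehicle (log2 fold change -0.31, SE 0.04, adjusted p = 0.00694). Its second probe set was near the floor, at 6.83 ± 4.66 with PD0332991 and 7.65 ± 3.23 with vehicle (SD, n = 3 each). Hus1, a subunit of that clamp, had a log2 fold change of -0.34 (adjusted p = 0.0168, with an SE of 0.06), and Rad9a, another subunit, one of -0.23 (adjusted p = 0.0273). Without PD0332991 replicate 2 or 3, or vehicle replicate 1 or 2, both lost their calls and the list held 1 fall, and Rad9a lost its call without vehicle replicate 3 too. No fall in the list, that of Rhno1 included, was called with the replicate block or with spike-in centring without vehicle replicate 1. Chtf8 and Rad17 did not pass the test, with log2 fold changes of -0.09 (adjusted p = 0.207) and -0.03 (adjusted p = 0.668).

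Among 10 genes that attach ubiquitin to PCNA or take it off, 3 fell and none rose, beside 9.05% lower and 7.8% higher of all genes, and their median log2 fold change was -0.14. Usp1, the protease that deubiquitinates PCNA and acts with ATAD5, had intensities of 1740, 1770 and 1793 with PD0332991, against 3372, 3523 and 3378 with vehicle. The groups were far apart (log2 fold change -0.95, SE 0.04, adjusted p = 0.00014), and its other 2 probe sets gave -1.16 and -1.13. Rad18, the ligase that marks PCNA at stalled forks, had a log2 fold change of -0.64 (adjusted p = 0.00116, with an SE of 0.05), and limma called each of its 4 probe sets lower. Its partner Ube2a, the remaining fall, had a log2 fold change of -0.28 (adjusted p = 0.011), and a further Ube2a probe set gave -0.08 and was not called. The Ube2a call was lost with either spike-in centring, with the replicate block and at a threshold of 0.01, which left 2 falls. Hltf and Shprh, ligases that extend the chain, had log2 fold changes of -0.06 and -0.08 and did not pass the test.

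Of 11 polymerase, flap and ligation genes whose products work on the clamp, 7 fell and 2 rose, where 9.05% of all genes fell and 7.8% rose, and the list's median log2 fold change was -0.57. Lig1, the ligase that seals Okazaki fragments, had intensities of 513.9, 544.6 and 541.5 with PD0332991, against 1490, 1541 and 1491 with vehicle, or 2.77-fold less (log2 fold change -1.47 with SE 0.04 and adjusted p = 8.97e-05). Pold1, the catalytic subunit of DNA polymerase delta, was 2.44-fold lower (log2 fold change -1.29, SE 0.05, adjusted p = 9.07e-05). That Pold1 probe set is of a type whose probes can match other transcripts. A dimmer Pold1 probe set, not of that type, gave -0.74, or 1.68-fold lower. Pold4, the smallest subunit of the same polymerase, went the other way, with intensities of 452.9, 453.4 and 460.4 with PD0332991, against 347.5, 373.7 and 358.6 with vehicle (log2 fold change 0.33, SE 0.04, adjusted p = 0.00782). Polk, a translesion polymerase, had a log2 fold change of 0.24 (adjusted p = 0.0242, with an SE of 0.05) that lost its call without any 1 of 5 arrays, vehicle replicate 3 being the exception, and a dimmer Polk probe set gave 0.00. Neither of these rises was called with spike-in centring.

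Among 24 chromatin, licensing, repair and cell-cycle genes whose products bind PCNA, 14 fell and 2 rose, where 9.05% of all genes fell and 7.8% rose. The count of rises was thus near that share, and the list's median log2 fold change was -0.30. Esco2, which acetylates cohesin during S phase, was at 227.5 ± 16.1 with PD0332991 and 941.9 ± 41.1 with vehicle (SD, n = 3 each), and its log2 fold change was -1.98 with an SE of 0.06 and an adjusted p of 8.97e-05 in limma. Pclaf, the PCNA clamp-associated factor, had intensities of 831.3, 929.1 and 903.9 with PD0332991, against 3141, 3189 and 3147 with vehicle (log2 fold change -1.81, SE 0.05, adjusted p = 8.97e-05). Of its dimmer probe sets 1 gave -1.33 and the other 0.05. The rises were those of Cdkn1a, the CDK inhibitor p21 that also binds PCNA, and Gadd45a, a stress-induced gene. Cdkn1a had 1021, 1150 and 1142 with PD0332991, against 596.7, 631.2 and 652.3 with vehicle (log2 fold change 0.80, SE 0.07, adjusted p = 0.0014), and Gadd45a had a log2 fold change of 0.44 (adjusted p = 0.00294, with an SE of 0.04). The call of Gadd45a was lost with spike-in centring.

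**Figure D4:**
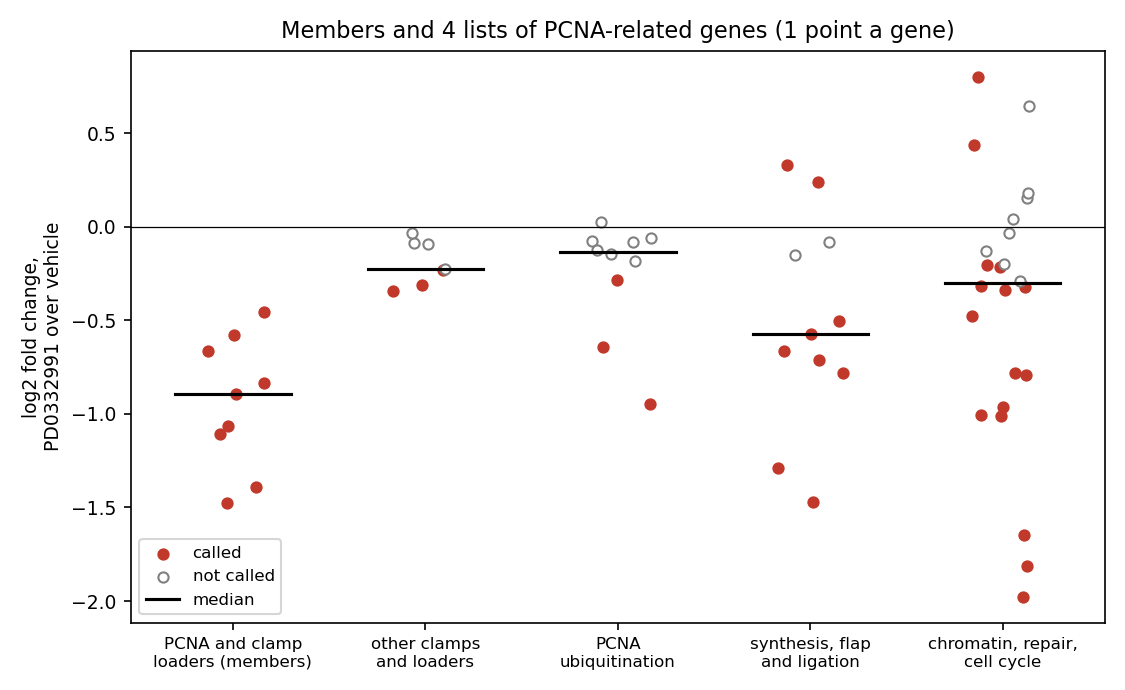
Log2 fold change of each gene, PD0332991 over vehicle, for the 9 member genes and the 4 lists of genes related to PCNA, with filled points for genes called by limma, open points for genes not called and a bar at each median. The 9 member points all lie between -1.48 and -0.46, while each list also holds points near 0.

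The arrays were at a like level, with a median intensity of 70.1 ± 0.84 on the PD0332991 and 71.8 ± 0.79 on the vehicle arrays (SD, n = 3 each). Each PD0332991 median (69.56 to 71.09) was nonetheless slightly below each vehicle median (71.26 to 72.74). Over the whole array 2701 probe sets were called higher and 3690 lower, and leaving out any 1 of the 6 arrays gave 1305 to 1560 higher and 2013 to 2240 lower. Centring each array on its median gave 3083 higher and 2909 lower. Centring on the 9 hybridization spike-ins gave 500 higher and 2665 lower and moved the median of all probe sets to -0.10 on the log2 scale. Vehicle replicate 1 had the lowest spike-in mean, 10.1 (log2), against 10.2 to 10.3 on the other 5 arrays, and without it that centring gave 500 higher and 1495 lower and a median of -0.04. All 9 member genes were called lower under both spike-in centrings and with median centring. Of 9 epithelial markers, Krt8 averaged 10596 with PD0332991 and 9981 with vehicle, and Epcam averaged 9662 with PD0332991 and 9635 with vehicle. Krt19 was near the floor, at 1.42 with PD0332991 and 1.00 with vehicle, and Krt5 and Krt14 were dim. Cldn4 was called higher and none lower, where 7.8% of all genes were called higher and 9.05% lower. Of 9 leukocyte markers 2 were called higher, Cd68 and the dim Ptprc, beside 7.8% of all genes. The summed intensity of the leukocyte list was 717.5 to 740.1 with PD0332991 and 629.3 to 698.8 with vehicle. Cd3e averaged 1.33 with PD0332991 and 3.79 with vehicle, and Cd79a 1.79 with PD0332991 and 4.40 with vehicle. In the fibroblast list 1 of 6 markers was lower, Pdgfra, and in the endothelial list 1 of 5, Emcn, beside 9.05% of all genes. The other 2 Pdgfra probe sets were not called, and Emcn was near the floor, at 5.71 with PD0332991 and 13.2 with vehicle. The sums of the fibroblast and endothelial lists were 296.6 to 320.0 and 129.2 to 142.1 with PD0332991. With vehicle they were 350.8 to 387.0 and 124.2 to 138.2. The part of these markers in the falls above was not tested.

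**Figure D5:**
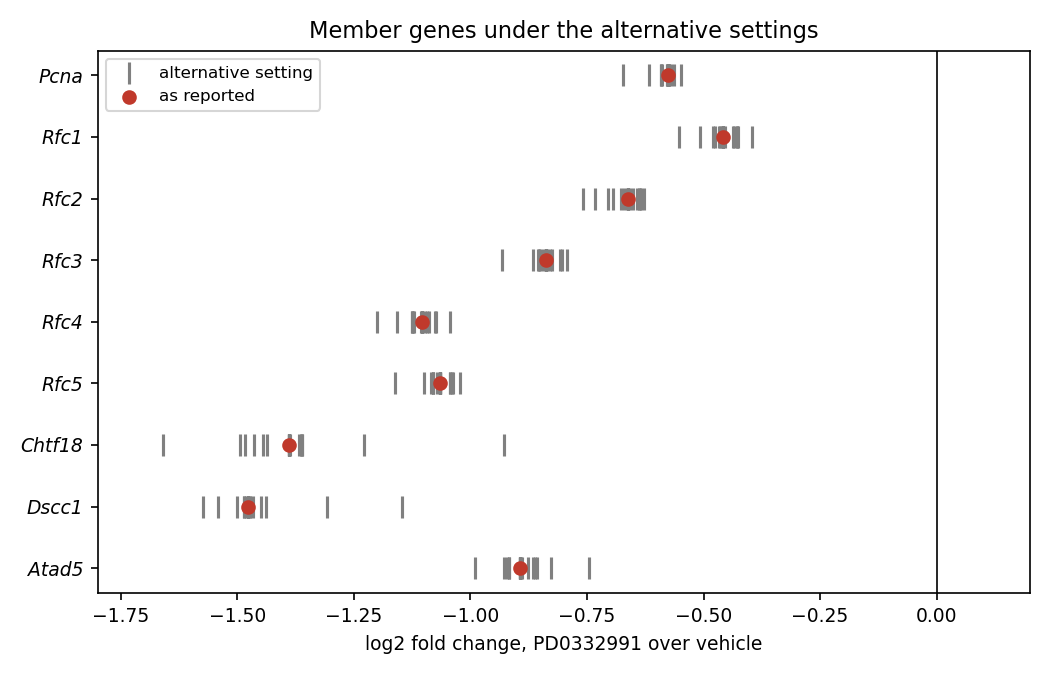
Log2 fold change of the 9 member genes, PD0332991 over vehicle, as reported (red) and under 18 alternative settings (grey bars). All values stay left of 0, and Chtf18 has the widest range, from -1.66 to -0.93.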

How the data were processed

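Total RNA of 3 PD0332991 and 3 vehicle samples of V720 cells was the starting material for Affymetrix mouse arrays with a biotin label, per the labels' protocols. The authors' deposited table holds 1 linear intensity per probe set and array; the summarisation method and scaling are not given in the sources used here, and no scanner files were used. Arrays scaled to a like level do not show total RNA per cell. The number of arrays limits the precision.

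The 64 control probe sets were left out. Intensities were taken as log2(intensity + 16), which understates changes of dim probe sets, and the groups were compared over all 45037 other probe sets with lmFit and eBayes of limma 3.58.1 (R 4.3.3), with two-sided p-values adjusted by Benjamini-Hochberg and a threshold of 0.05. A gene was represented by its brightest single-symbol probe set, named from the platform annotation. Per-array differences were tested by exact permutation (scipy 1.17.1). The fits were tried on simulated data with 200 of 45037 probe sets changed, far fewer than were called here. Of changes of 0.25 and 0.5 on the log2 scale, 6% and 40% were recovered. For changes of 1 and 2 the shares were 64% and 92%, so a gene that was not called may still have changed. The members, the 4 lists, the markers and the settings were chosen with earlier results of these data known. The genes named are all members, the 2 rises and 2 falls with the smallest p in each list, any list gene that moved against the others, and the 5 genes nearest to Pcna. Rad9a, Ube2a, Chtf8, Rad17, Hltf and Shprh were added after their values were seen. Hus1b and Chaf1a of the lists were not analysed here, and protein sequences were not used. The alternatives were a replicate block, other normalizations, pseudocounts of 1 and 64, a filter on dim probe sets, gene-level fits, other variance models, array weights, a stricter threshold and each array left out. Promoter sequences are from RefSeq (GRCm38.p6), matched by symbol.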

Additional observations from a re-analysis of the deposited data

How the results depend on the processing

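All 9 member genes kept their direction and their call in the 162 values from 18 alternative settings, and the ranges ran from -1.66 to -0.93 for Chtf18 and from -0.55 to -0.40 for Rfc1. Of the 17 member probe sets, between 13 and 17 were called when 1 array was left out, 15 with the replicate block, 15 with spike-in centring without vehicle replicate 1, 15 with a filter on dim probe sets, which leaves out the pair below the median, and 13 at a threshold of 0.01. The probe sets that lost their calls were dimmer ones of Rfc1, Dscc1 and Atad5. Over all probe sets, 827 were higher and 1478 lower with the replicate block, 500 higher with spike-in centring, 500 higher and 1495 lower with spike-in centring without vehicle replicate 1, 4345 higher with trended and robust variances, and 842 higher and 1498 lower at a threshold of 0.01. Leaving out 1 array gave 1305 to 1560 higher and 2013 to 2240 lower.

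Among the other clamps and loaders the number of falls was 0 with the replicate block, 0 with spike-in centring without vehicle replicate 1, 1 at a threshold of 0.01 and 1 to 3 with 1 array left out. Among the ubiquitination genes it was 2 with the replicate block, with either spike-in centring and at a threshold of 0.01. It was 5 with a pseudocount of 64, 6 with the filter on dim probe sets and 6 with trended and robust variances. Of all genes, 2161 of 18193 were called lower with that pseudocount and 2416 of 10776 with the filter. Trended and robust variances gave 2496 of 18193 lower, against 1646 of 18193 in the main fit. Among the synthesis enzymes the number of rises was 0 with the replicate block and with either spike-in centring, 1 with all probe sets of a gene averaged, 1 at a threshold of 0.01 and 1 to 2 with 1 array left out. Among the chromatin and cell-cycle genes there were 9 falls with the replicate block and 9 with spike-in centring without vehicle replicate 1. Their rises numbered 4 with quantile normalization and 1 with spike-in centring. They numbered 5 with a pseudocount of 64, with the filter on dim probe sets, which kept 22 of these 24 genes, and with trended and robust variances. Of all genes, 1931 of 18193 were called higher with that pseudocount and 2131 of 10776 with the filter. Trended and robust variances gave 2348 of 18193 higher, against 1419 of 18193 in the main fit. The cause of these differences was not tested. Same-numbered arrays of the groups had correlations of -0.03, -0.11 and 0.14 between their deviations from the group means, so the numbers were not taken as pairs.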
